A study of Mus musculus with 128 samples.

Results

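The 34 genes described here encode proteins with which mouse liver takes up, activates, imports and oxidises fatty acids and makes ketone bodies. They were chosen by gene symbol, for the known role of each product, from the 35275 genes of the deposited count table. All 34 passed the filter on low counts, which kept 16886 genes for testing. By role they comprise 4 genes of the carnitine shuttle (Cpt1a, Cpt2, Slc25a20, Crat), 10 of mitochondrial beta-oxidation (Acadvl, Acadl, Acadm, Acads, Hadha, Hadhb, Hadh, Acaa2, Eci1, Decr1) and 3 of electron transfer from it (Etfa, Etfb, Etfdh). A further 2 belong to ketone body metabolism (Acat1, Bdh1), 8 to the peroxisome (Ehhadh, Acaa1a, Acaa1b, Ech1, Eci2, Decr2, Crot, Pex11a), 4 to uptake and activation (Cd36, Slc27a2, Fabp1, Acsl1) and 2 are acyl-CoA thioesterases (Acot1, Acot2). Creb3l3, a liver transcription factor that promotes genes of fasting, was the 1 regulator. Each gene was placed in 1 role only. The split between mitochondria and peroxisome follows that choice, and the place of the products was not measured. Other enzymes of ketone body synthesis were not analysed here.

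Livers came from wild-type males, 8 weeks old at purchase, of inbred mouse strains, C57BL6/J in 65 libraries and BALB/c in 63. All were trained for 1 week to eat chow in the evening, which supplied 64.5% of its calories as carbohydrate and 10% as fat, and were then fasted for 21 h with no drink in the last hours. Chow returned at 7 pm together with water, or with water holding 20% glucose, 20% sucrose or 20% fructose, and livers were taken at 0 h (before food, the same moment for every drink) and 3, 6 and 12 h later. Each strain thus gave 13 conditions, of which 24 of the 26 strain-specific groups held 5 libraries, and BALB/c on glucose and on fructose at 12 h held 4 each. Hours after feeding and hour of the day advanced together, so feeding and the daily rhythm cannot be told apart. The labels do not state that every library is a separate mouse, and the spread behind every p-value is that between the libraries.

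Long-chain fatty acids enter mitochondria as carnitine esters. Cpt1a on the outer membrane makes the ester and is the regulated gate of the pathway, Slc25a20 carries it across the inner membrane, and Cpt2 turns it back to the CoA ester. Each turn of beta-oxidation then uses an acyl-CoA dehydrogenase, a hydratase, a hydroxyacyl-CoA dehydrogenase and a thiolase, and passes electrons through the flavoprotein Etfa-Etfb and Etfdh to the respiratory chain. Peroxisomes shorten very long chains by a parallel set of enzymes. In fasting, the liver turns the resulting acetyl-CoA into ketone bodies for other organs, and after a carbohydrate meal this flow is known to fall.

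Library totals ran from 18541545 to 43118895 counts. In this bulk tissue RNA, fewer cells of a type and less RNA per cell cannot be told apart. All 6 hepatocyte markers were detected in every library, with summed levels of 43100 to 129000 CPM, the counts scaled to a common library size with TMM factors. Skeletal muscle transcripts varied between libraries, with 11 markers summing to 0.454 to 602 CPM and above 50 CPM in 65 libraries. Markers of other organs were high in single libraries, reaching 603 CPM for 6 adrenal markers (over 50 CPM in 4 libraries), 1500 for 5 pancreas markers (in 3) and 338 for 4 kidney markers (in 2). In 6 libraries the correlation with the rest of their group over expressed genes was under 0.94, against at least 0.948 in the other 122. They were BALB/c water 0 h replicate 1 (0.843), BALB/c water 12 h replicate 1 (0.913), C57BL6/J water 3 h replicate 4 (0.924), C57BL6/J water 0 h replicate 2 (0.939), C57BL6/J glucose 6 h replicate 3 (0.938) and BALB/c fructose 6 h replicate 4 (0.938). The members were low in the first 3 of these, with median deviations from the group's other libraries of -1.43, -1.01 and -0.90 on the log2 scale. Counts are therefore also given without these 6 libraries, a choice made after seeing the data.

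Levels, compared between genes as FPKM because that unit divides by the gene length of the deposited table, differed 1527-fold between the highest and the lowest median over all libraries. That length can differ from a transcript's in either direction, so the order of levels depends on it. It was 3668 bases for Acaa1a and 1559 for Acot1, whose longest coding transcripts had 1762 and 2272. Fabp1, the abundant cytosolic fatty acid binding protein, had the highest median, 4562 FPKM. Acot2, a mitochondrial thioesterase, had the lowest, 2.99 FPKM. Among the 10 mitochondrial beta-oxidation genes the level was highest for the thiolase Acaa2, at 669 FPKM, and lowest for Hadhb, the thiolase subunit of the trifunctional protein, at 40.6 FPKM. Medium-chain dehydrogenase Acadm lay at 169.8 FPKM, long-chain Acadl at 122, short-chain Acads at 62.7 and very-long-chain Acadvl at 53.2. The neighbours in that order overlapped in their ranges over libraries (81.5 to 261, 67.9 to 187, 29.6 to 117 and 14.4 to 127.6 FPKM).

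Electron transfer genes were high by the same scale, with Etfb at 649 and Etfa at 316 FPKM against 45.6 for Etfdh. Cpt1a stood at a median of 44.0 FPKM, below its partners Cpt2 (70.1) and Slc25a20 (52.9), and the acetylcarnitine enzyme Crat at 16.5. In the peroxisome the levels ran from Ech1, a dienoyl-CoA isomerase, at 372 FPKM to Pex11a, a division factor of the organelle, at 39.6. Bdh1, the mitochondrial enzyme that interconverts acetoacetate and 3-hydroxybutyrate, had the widest range of the 34 genes by ratio, 1.27 to 108 FPKM. Its lowest value came from BALB/c water 0 h replicate 1, and in C57BL6/J its lowest was 19.7 FPKM. Crot, the peroxisomal carnitine octanoyltransferase, spanned 10.8 to 343 FPKM and Fabp1 238 to 9905 FPKM. Etfa had the narrowest range by ratio, 204 to 444 FPKM.

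Of the 34 genes, 30 matched an entry of the RefSeq promoter table (build GRCm38.p6). Acaa2, Acat1, Crat and Decr1 did not. The 250 bases before the RefSeq start are shown for Cpt1a, which had the largest fall on water, for Crot, which had the largest rise that was called, for the members that hold a direct repeat 1 motif, and for Hadhb, whose RefSeq start lies 273 bases from that of Hadha on the opposite strand. Capitals mark the direct repeat where there is one, and all are printed 5′ to 3′ on the strand of the gene.
Cpt1a (chr19:3323051-3323300, + strand): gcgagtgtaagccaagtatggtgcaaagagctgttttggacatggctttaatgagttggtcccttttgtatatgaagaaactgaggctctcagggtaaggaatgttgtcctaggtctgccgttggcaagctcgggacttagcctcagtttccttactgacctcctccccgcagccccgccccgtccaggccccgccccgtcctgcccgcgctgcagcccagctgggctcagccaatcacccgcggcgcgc
Crot (chr5:8997147-8997396, - strand): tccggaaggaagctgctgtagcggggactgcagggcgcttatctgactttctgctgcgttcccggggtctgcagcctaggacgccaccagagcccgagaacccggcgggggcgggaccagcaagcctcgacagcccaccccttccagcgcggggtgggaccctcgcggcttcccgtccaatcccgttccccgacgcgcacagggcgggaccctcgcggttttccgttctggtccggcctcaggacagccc
Eci2 (chr13:34994145-34994394, - strand): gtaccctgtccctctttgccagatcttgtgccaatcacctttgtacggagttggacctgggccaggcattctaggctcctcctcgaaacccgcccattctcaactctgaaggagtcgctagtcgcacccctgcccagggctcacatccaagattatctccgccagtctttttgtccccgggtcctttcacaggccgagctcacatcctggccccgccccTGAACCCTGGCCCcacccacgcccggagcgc
Ehhadh (chr16:21787835-21788084, - strand): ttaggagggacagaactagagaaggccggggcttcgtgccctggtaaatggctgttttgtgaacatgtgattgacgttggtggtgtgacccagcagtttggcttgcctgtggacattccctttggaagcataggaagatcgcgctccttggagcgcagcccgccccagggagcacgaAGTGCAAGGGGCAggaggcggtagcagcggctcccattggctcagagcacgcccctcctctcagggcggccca
Fabp1 (chr6:71199629-71199878, + strand): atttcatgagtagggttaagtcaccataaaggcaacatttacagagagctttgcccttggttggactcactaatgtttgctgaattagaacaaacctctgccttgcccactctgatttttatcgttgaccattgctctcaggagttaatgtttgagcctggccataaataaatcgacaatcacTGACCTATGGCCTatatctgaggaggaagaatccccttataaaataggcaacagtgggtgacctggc
Hadhb (chr5:30155003-30155252, + strand): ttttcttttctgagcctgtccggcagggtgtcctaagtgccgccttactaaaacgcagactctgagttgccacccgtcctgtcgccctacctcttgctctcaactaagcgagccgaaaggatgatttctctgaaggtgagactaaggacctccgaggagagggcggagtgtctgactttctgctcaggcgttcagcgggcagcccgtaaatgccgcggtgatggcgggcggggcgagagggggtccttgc
The direct repeat 1 (DR1), the kind of element bound by PPAR and other nuclear receptors, was searched on both strands as AGGNCANAGGNCA and in a looser form that includes it. The strict form was in 0.338% of 32851 promoters of the table and, among the 33 member promoters, in that of Fabp1 alone, 67 to 55 bases before the start. The looser form was in 1.7% of all promoters and in those of Fabp1 (the same letters), Ehhadh (73 to 61 bases before the start) and Eci2 (31 to 19 bases before the start). An E-box spelled CACGTG was in 6.02% and a D-box spelled TTANGTAA in 2.06% of all promoters, both elements of the circadian clock, and in 0 of the 33 member promoters. All positions count from the RefSeq start, which lies far inside the gene span of the deposited table for Eci2 and slightly inside it for Crot, Ehhadh, Fabp1 and Hadhb. A match is a description of letters and not a measured site.

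After 3 h of feeding on water, the averages of the 2 strains fell in 3 members and rose in 1. Over all genes tested, 12.7% fell and 12.7% rose (edgeR's quasi-likelihood test, Benjamini-Hochberg adjusted p under 0.05, the rule for every call below). Cpt1a fell most, by a log2 fold change of -1.13 ± 0.18 (± SE of the fit throughout, adjusted p = 2.77e-07). Eci2, a peroxisomal enoyl-CoA isomerase, changed by -0.80 ± 0.13 (adjusted p = 5.77e-07), and Slc27a2, a very-long-chain acyl-CoA synthetase and transporter, by -0.40 ± 0.12 (adjusted p = 0.00992). Cpt2 was the riser, at 0.35 ± 0.12 (adjusted p = 0.0184).

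None of the 10 genes of mitochondrial beta-oxidation passed the test at 3 h, and their log2 fold changes lay within -0.13 to 0.11. The 3 electron transfer genes lay within -0.07 to 0.04 and both ketone body genes within -0.42 to -0.01. The median over the 34 members was -0.05, beside -0.01 over all genes. With the 6 libraries left out 1 member rose and 6 fell, where 15.9% of all genes rose and 14.5% fell, the added ones being Bdh1 (-0.55), Acaa1a (-0.32) and Pex11a (-0.38). The rise of Cpt2 lost its call in 6 of 18 alternative fits, among them the one without BALB/c water 0 h replicate 1 alone, and the fall of Slc27a2 lost its call without the libraries numbered 4.

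At 6 h, 7 members had fallen and 1 had risen, where 14.9% of all genes fell and 13.9% rose. Cpt1a reached its lowest point, -1.97 ± 0.18 (adjusted p = 4.51e-16), and Cpt2 remained above its fasted level, 0.51 ± 0.12 (adjusted p = 0.00031). Of the 8 peroxisomal genes 4 fell, namely Eci2 (-1.08 ± 0.13, adjusted p = 7.49e-11), Pex11a (-0.73 ± 0.13, adjusted p = 2.49e-06), Decr2, a dienoyl-CoA reductase (-0.43 ± 0.13, adjusted p = 0.00614), and the thiolase Acaa1a (-0.33 ± 0.11, adjusted p = 0.0185). Slc27a2 (-0.55 ± 0.12, adjusted p = 0.00024) and Creb3l3 (-0.28 ± 0.11, adjusted p = 0.0454) fell as well. Each of the 8 moved the same way in 10 of 10 libraries, relative to the mean of its strain at 0 h.

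Again none of the 10 mitochondrial beta-oxidation genes was called at 6 h, with values of -0.43 to 0.20 and a median of -0.06. In the fit without the 6 libraries 9 of the 10 values were below 0, with a median of -0.19 and again no call. Slc25a20 (-0.31 ± 0.13, adjusted p = 0.0505) and Bdh1 (-0.47 ± 0.24, adjusted p = 0.128) did not pass either. Both were called without the 6 libraries (-0.44 and -0.71), as were Acaa1b (-0.54) and the long-chain acyl-CoA synthetase Acsl1 (-0.41), for 11 members lower and 1 higher, where 15.6% of all genes were lower and 15.2% higher. The call of Creb3l3 was lost in 7 of 18 alternatives (values of -0.40 to -0.23), 1 of which added skeletal muscle transcripts as a covariate, and that of Acaa1a in 4.

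At 12 h, 15 members had fallen and 1 had risen, against 9.3% and 8.31% of all genes. All 4 carnitine shuttle genes were lower (Cpt1a -0.81 ± 0.18, Slc25a20 -0.65 ± 0.13, Crat -0.46 ± 0.11, Cpt2 -0.34 ± 0.12). The fall of Cpt2 at 12 h, against the rises at 3 and 6 h, lost its call in 8 of 18 alternatives, among them those without BALB/c water 12 h replicate 1 or C57BL6/J water 0 h replicate 2 alone. In the peroxisome 5 of 8 fell, with Acaa1b at -1.10 ± 0.23, Pex11a at -1.08 ± 0.13, Eci2 at -1.04 ± 0.13, Decr2 at -0.82 ± 0.13 and Acaa1a at -0.72 ± 0.11. Crot was the 1 member to rise, by 0.90 ± 0.19 (adjusted p = 0.000242).

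Mitochondrial beta-oxidation had 2 of 10 genes called at 12 h, Decr1, the mitochondrial dienoyl-CoA reductase (-0.45 ± 0.14), and Acaa2 (-0.38 ± 0.13), with all 10 values within -0.45 to -0.07. The call of Acaa2 was lost in 7 of 18 alternatives, among them without BALB/c water 12 h replicate 1 alone, and that of Decr1 in 4. The median of that step was -0.27, beside -0.56 for the carnitine shuttle and -0.77 for the peroxisome. Differences between steps were not tested. Bdh1 (-0.74 ± 0.24, adjusted p = 0.0175), Acsl1 (-0.85 ± 0.16), Slc27a2 (-0.52 ± 0.12) and Creb3l3 (-0.58 ± 0.11) made up the rest. The 3 electron transfer genes, at -0.15 to 0.13, and both thioesterases, at -0.51 to -0.40, were not called.

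Over the 34 members the median at 12 h was -0.38, beside -0.01 over all genes, and 29 of the 34 values were below 0. When the 6 libraries were left out the same 16 calls stood and Acadl (-0.32, -0.30 with them), Hadh (-0.31, -0.23 with them) and Fabp1 (-0.64, -0.60 with them) were added as lower, where 9.82% of all genes were lower. With only the 20 libraries of the contrast 10 members were called, and Crot, Acaa1b, Bdh1, Decr1, Acaa2 and Cpt2 no longer were. Summed muscle markers were lower at 12 h (0.922 to 116 CPM, median 2.22) than at 0 h (1.32 to 336 CPM, median 205), none of the 11 being 0 in every library of either time. With those transcripts as a covariate all 16 calls at 12 h were kept.

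**Figure D1:**
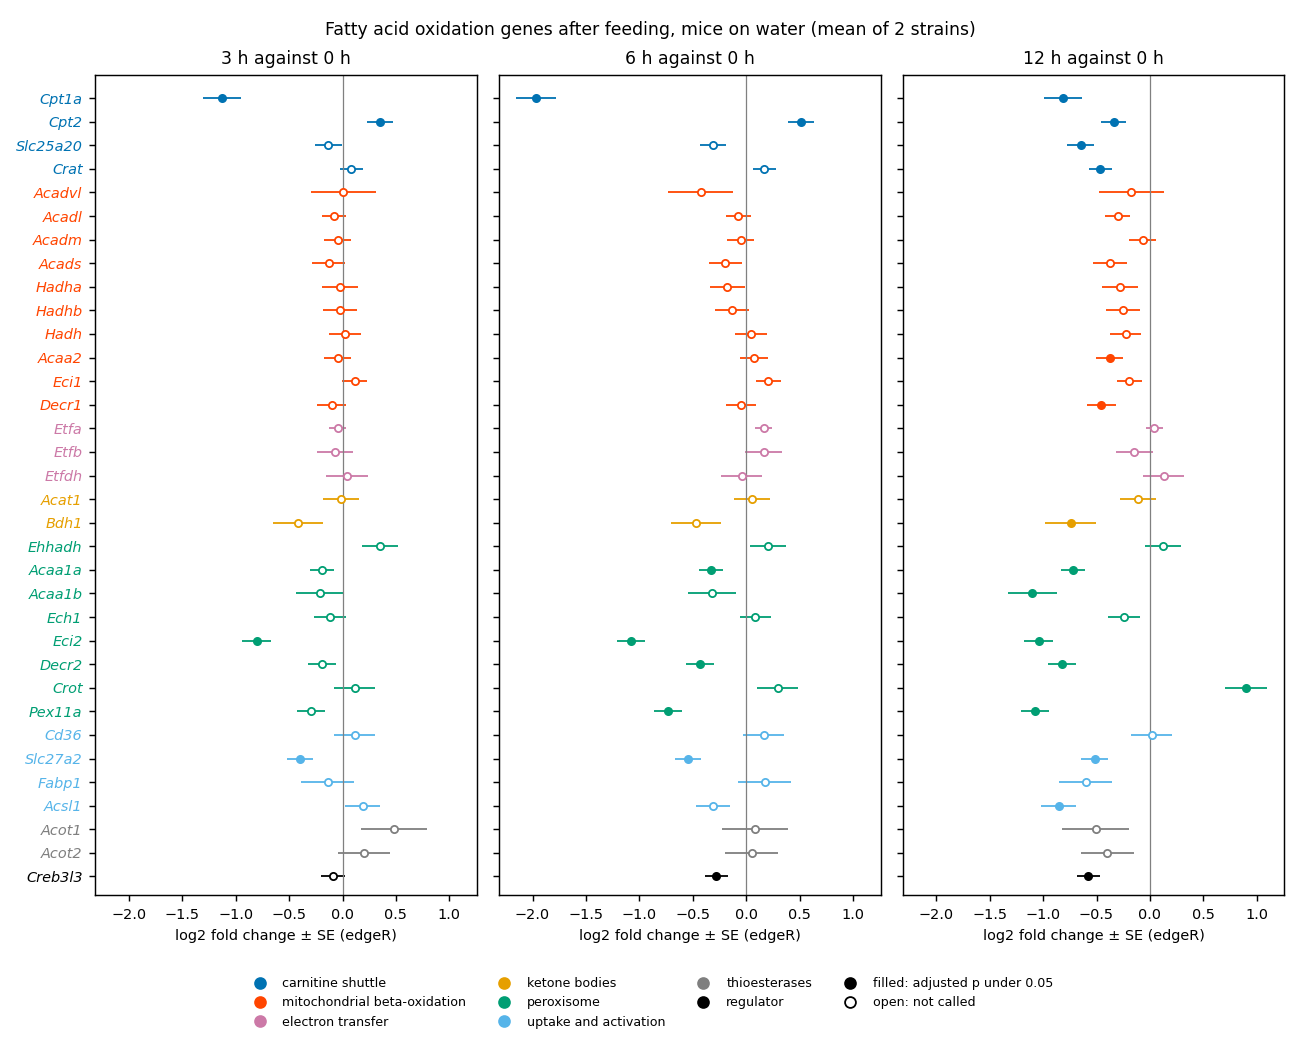
Log2 fold change of each of the 34 members on water at 3, 6 and 12 h against 0 h (x axis, mean of both strains ± SE, edgeR), in rows coloured by role, with filled points for adjusted p under 0.05. Cpt1a lies far to the left at 3 and 6 h, the mitochondrial beta-oxidation rows have open points at those times, and at 12 h most rows lie left of 0 while Crot lies at 0.90.

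The gene Cpt1a (chr19:3323301-3385732, + strand, mm10 coordinates as deposited, like those below) in fasted C57BL6/J livers stood at 715, 182, 388, 345 and 436 CPM and in fasted BALB/c livers at 545, 351, 363, 454 and 561 CPM. At 3 h the values were 224, 200.1, 206, 92.4 and 211 CPM in C57BL6/J and 249.7, 234, 198, 166 and 204 in BALB/c. Values at 6 h were 89.0, 106, 112, 108 and 104 CPM in C57BL6/J and 102, 140.0, 135, 114 and 99.6 in BALB/c. In both strains all libraries at 6 h were below all at 0 h. C57BL6/J replicate 4 at 3 h was low beside its group. At 12 h, above every library at 6 h, Cpt1a stood at 192, 325, 220.2, 214 and 230.3 CPM in C57BL6/J and 220.3, 347, 244, 294 and 184 in BALB/c. In C57BL6/J the 12 h libraries lay below all at 0 h except replicate 2 of the fasted group (182 CPM). That library is 1 of the 6 far from their group. In BALB/c every library at 12 h lay below every one at 0 h.

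Cpt2 (chr4:107903981-107923610, - strand) had 153, 184, 143, 162 and 139.7 CPM in fasted C57BL6/J and 39.7, 142, 176, 209 and 187 CPM in fasted BALB/c, where replicate 1 stood far below the rest. At 6 h it had 194, 229.6, 205, 213 and 211 CPM in C57BL6/J and 212, 228, 247, 229 and 226 in BALB/c. All libraries at 6 h were above all fasted ones of their strain. At 12 h the values were 106, 129.9, 127, 119.6 and 114 CPM and 86.8, 118, 150.2, 137 and 125 CPM. The C57BL6/J libraries at 12 h were all below the fasted ones, and the BALB/c ranges overlapped.

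Eci2 (chr13:34977748-35027094, - strand) is shown because it fell at all 3 times, and so was chosen after its values were seen. Cpt1a and Slc27a2 were also called lower at all 3 times, and Slc27a2 is not shown by library. Eci2 had 250.5, 166, 316, 361 and 322 CPM in fasted C57BL6/J and 151, 345, 410.0, 405 and 395 CPM in fasted BALB/c. Its 6 h values were 113, 129.5, 152, 141 and 136 CPM in C57BL6/J and 133, 153, 188, 156 and 178 in BALB/c. At 12 h they were 105, 109.9, 111, 168 and 112 CPM and 165, 130.3, 209.8, 243 and 191 CPM. The C57BL6/J groups at 0 and 12 h met only at replicate 2 of the former and replicate 4 of the latter. In BALB/c replicate 1 at 0 h fell inside the fed range and the other 4 lay above it.

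Acaa1b (chr9:119148023-119157093, - strand), a peroxisomal thiolase like Acaa1a, stood at 516, 496, 1085, 854 and 753 CPM at 0 h and 302, 319.7, 460.2, 364 and 237 CPM at 12 h in C57BL6/J. In BALB/c it stood at 81.8, 901, 1349, 1334 and 1407 CPM at 0 h and 132, 475, 554, 510.3 and 760.0 CPM at 12 h. The C57BL6/J groups did not overlap. Leaving aside replicate 1 at both times, which was low for this gene, every BALB/c library at 12 h was below every one at 0 h.

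Crot (chr5:8966033-8997324, - strand) had 325, 270.4, 252, 231 and 288 CPM at 0 h and 372, 586, 465, 475 and 371 CPM at 12 h in C57BL6/J, and 32.1, 282, 213, 289 and 355 CPM at 0 h and 91.0, 647, 597, 523 and 599 CPM at 12 h in BALB/c. The C57BL6/J groups did not overlap. Replicate 1 of BALB/c was the lowest library of its group at both times, and the other 4 at 12 h lay above the highest at 0 h. Without the 6 libraries its log2 fold change was 0.88 (adjusted p = 7.73e-06).

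Bdh1 (chr16:31422280-31458901, + strand) stood at 194, 113, 252, 146 and 158 CPM at 0 h and 87.8, 110.3, 68.0, 78.2 and 71.0 CPM at 12 h in C57BL6/J. In BALB/c it stood at 3.92, 204, 299, 266 and 358 CPM at 0 h and 67.5, 227, 214, 127 and 203 CPM at 12 h. The C57BL6/J groups did not overlap, and the BALB/c groups did, with replicate 1 of the fasted group far below the other 4. Without the 6 libraries the change of Bdh1 at 12 h was -0.87. Its call was lost in 5 of 18 alternatives, among them those without replicates 3, 4 or 5.

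**Figure D2:**
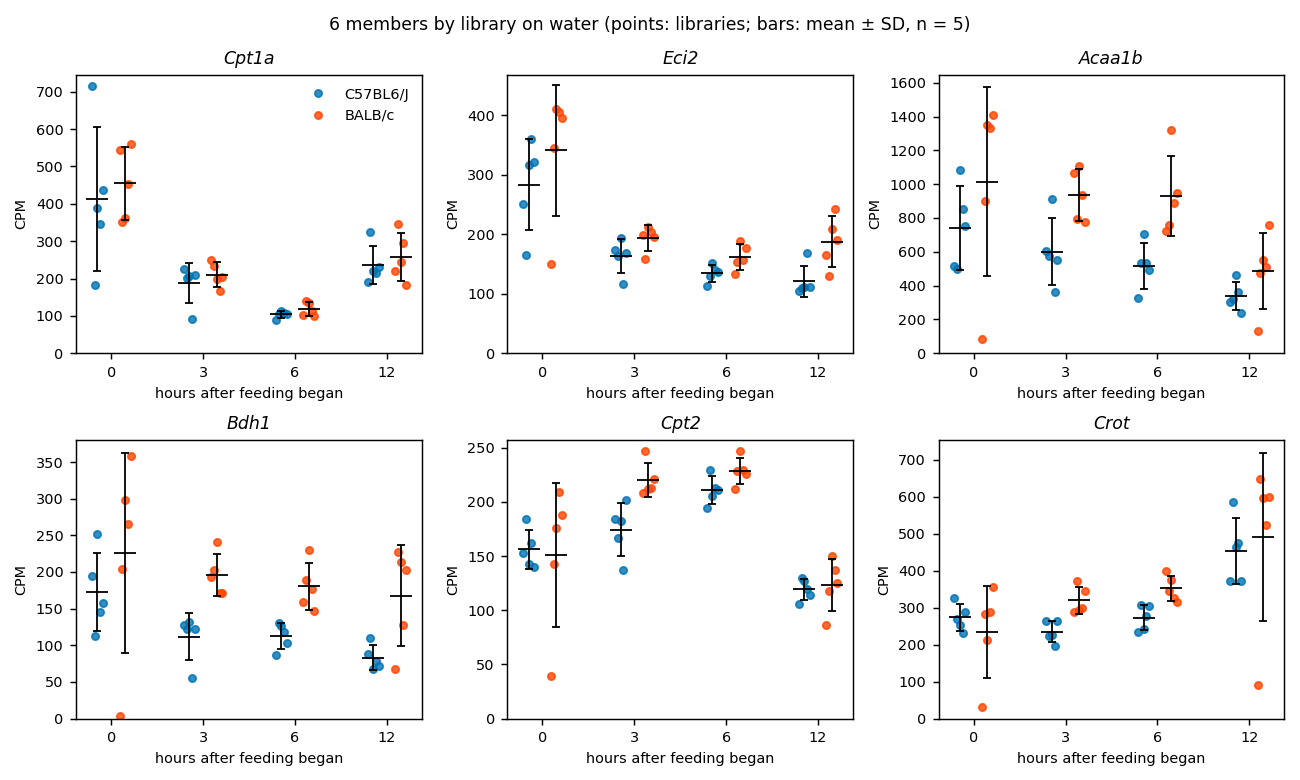
TMM-scaled CPM (y axis) of Cpt1a, Eci2, Acaa1b, Bdh1, Cpt2 and Crot in each library on water by hours after feeding began (x axis), with C57BL6/J and BALB/c side by side, points for libraries and bars for mean ± SD (n = 5). Cpt1a is lowest at 6 h in both strains, Crot is highest at 12 h, and a low BALB/c library, replicate 1, stands out at 0 and 12 h in several panels.

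Members of the inner steps showed wide overlap between times. Acadm, the medium-chain dehydrogenase, had a lowest, median and highest level of 238, 395 and 560.4 CPM over the 10 libraries at 0 h and 192, 385 and 474 CPM at 12 h. In fasted livers it had 409, 334, 309.7, 345 and 397 CPM in C57BL6/J and 238, 394, 417, 397 and 560.4 in BALB/c, and at 12 h 292, 404, 290.1, 367 and 353 CPM and 192, 474, 411, 411 and 430.0 CPM. The groups overlapped in both strains.

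Hadha, the dehydrogenase and hydratase subunit of the trifunctional protein, had 400.0, 332, 353, 272 and 313 CPM at 0 h and 222, 396, 216, 256 and 271 CPM at 12 h in C57BL6/J. In BALB/c its values were 175, 311, 405, 448 and 561 CPM at 0 h and 174, 444, 363, 298 and 298 CPM at 12 h. These overlapped as well, and the difference at 12 h (-0.28 ± 0.17, adjusted p = 0.271) was not called.

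Etfdh, the oxidoreductase that hands the electrons to ubiquinone, had 256, 174, 153, 122 and 153 CPM at 0 h and 152, 266, 133, 163 and 194 CPM at 12 h in C57BL6/J, and 104, 144, 180.3, 171 and 285 CPM at 0 h and 99.4, 280.2, 247, 185 and 187 CPM at 12 h in BALB/c. The groups overlapped in each strain.

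Ehhadh, the peroxisomal bifunctional enzyme, was not called at any time on water. It had 249, 264, 173, 146 and 204 CPM at 0 h and 167, 254, 218, 239 and 192 CPM at 12 h in C57BL6/J, and 81.7, 181, 190.3, 231 and 388 CPM and 131, 336, 249.7, 243 and 264 in BALB/c. The ranges overlapped in both strains.

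Acot1, a cytosolic thioesterase, had a lowest, median and highest level of 14.1, 53.3 and 112 CPM at 0 h, 39.9, 72.3 and 116 CPM at 3 h and 6.02, 41.6 and 62.9 CPM at 12 h. Its fasted values were 47.4, 112, 53.1, 53.5 and 57.6 CPM in C57BL6/J and 14.1, 23.7, 46.6, 62.0 and 105 in BALB/c. The libraries of the 3 times overlapped, and no time was called.

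Creb3l3 had 368, 310.0, 364, 350.2 and 299.9 CPM at 0 h and 199.5, 258, 230.0, 223 and 207 CPM at 12 h in C57BL6/J. In BALB/c it had 185, 367, 451, 538 and 431 CPM at 0 h and 132, 265, 317, 339.9 and 290.3 CPM at 12 h. The C57BL6/J groups did not overlap. In BALB/c only replicate 1 at 0 h (185 CPM) lay within the 12 h range, and the other fasted libraries lay above that range. All 10 libraries at 12 h were below their strain's fasted mean.

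The 3 sugar drinks were each compared with water at the same time, and the 3 contrasts at a time share the same 10 water libraries. At 3 h no member was called for glucose, sucrose or fructose by edgeR, where 0.19%, 2.92% and 6.71% of all genes were. At an unadjusted p under 0.05 there were 0, 0 and 2 members, and DESeq2 called 0, 0 and 0. The median log2 fold changes of the members were -0.04, -0.06 and -0.09. In the fit without the 6 libraries they were -0.12, -0.12 and -0.15, and fructose lowered 1 member, Acot2 (-0.74), where 4.22% of all genes were lower.

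At 6 h sucrose lowered 3 of the 34 members and raised none, where 0.563% of all genes were lower and 0.58% higher. The 3 were Acot2 (-1.004 ± 0.25, adjusted p = 0.0212), Slc25a20 (-0.48 ± 0.13, adjusted p = 0.0317) and Cpt2 (-0.44 ± 0.12, adjusted p = 0.0386), each lower in 10 of 10 sucrose libraries than the water mean of its strain. Each of these calls was lost in 5 or 6 of 18 alternatives, and the count ran from 0 to 3 when the libraries of 1 replicate number were left out in turn. Leaving the 6 libraries out, 9 members were lower, with Acaa2, Decr1, Etfa, Decr2, Acsl1 and Acot1 added, where 1.58% of all genes were lower.

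Acot2 on water at 6 h had 7.18, 9.95, 8.74, 5.96 and 8.01 CPM in C57BL6/J and 10.0, 10.8, 9.13, 6.99 and 10.1 in BALB/c. With sucrose it had 3.08, 3.18, 6.21, 4.94 and 2.48 CPM in C57BL6/J and 4.14, 6.32, 5.36, 4.68 and 3.06 in BALB/c. In BALB/c every sucrose library was below every water library, and in C57BL6/J 1 sucrose library lay within the water range.

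Cpt2 on water at 6 h is given above. With sucrose it had 165, 132, 187, 168 and 151 CPM in C57BL6/J and 149, 174, 175, 191 and 129 in BALB/c. In both strains every sucrose library was below every water library.

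Glucose at 6 h called 0 members by edgeR, with 10 at an unadjusted p under 0.05 and 0 by DESeq2, where 0.906% of all genes were called. Fructose called 0, with 5 and 1 by those measures, where 1.23% of all genes were called. The values for the members called with sucrose were -0.50 ± 0.25 with glucose and -0.88 ± 0.25 with fructose for Acot2 (adjusted p = 0.356 and 0.0507). For Slc25a20 they were -0.34 ± 0.13 and -0.28 ± 0.13, and for Cpt2 -0.33 ± 0.12 and -0.38 ± 0.12. Without the 6 libraries glucose lowered Cpt2 (-0.36) and fructose lowered Cpt2 (-0.39), Decr2 (-0.38) and Acot2 (-0.81), where 0.792% and 1.46% of all genes were lower.

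The members' values at 6 h leaned to one side whichever sugar was added. They were below 0 for 33 of 34 with glucose (median -0.23), 34 of 34 with sucrose (median -0.29) and 33 of 34 with fructose (median -0.16), beside medians of 0.02, 0.01 and 0.01 over all genes. With sucrose the 10 mitochondrial beta-oxidation genes lay within -0.41 to -0.23, the 8 peroxisomal genes within -0.44 to -0.17 and the 4 genes of uptake and activation within -0.56 to -0.22. The members are correlated within libraries and the contrasts share water libraries, so these counts are no test. The highest library at 6 h was on water for adrenal markers (603 CPM, C57BL6/J) and on glucose for pancreas markers (1500 CPM, C57BL6/J) and kidney markers (338 CPM, BALB/c, and 156 CPM in a BALB/c library on water), and their part in these values was not tested.

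At 12 h the values lay on the other side for sucrose (31 of 34 above 0, median 0.135) and fructose (33 of 34, median 0.16), with a median of 0.02 for glucose. No member was called by edgeR with any drink, where 0.0651%, 0.00592% and 0.00592% of all genes were for glucose, sucrose and fructose. At an unadjusted p under 0.05 there were 2, 3 and 6 members, and 0 each by DESeq2. Bdh1 had the values 0.62 ± 0.24 with glucose, 0.60 ± 0.24 with sucrose and 0.61 ± 0.24 with fructose (adjusted p = 0.609, 1 and 1). The 12 h water group holds 1 of the 6 libraries, BALB/c replicate 1, in which the members were low. In the fit without them the medians moved to -0.055 for glucose, 0.076 for sucrose and 0.097 for fructose.

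Fructose and glucose, isomers that enter liver metabolism by different enzymes, were also compared directly. No member was called at 3, 6 or 12 h by edgeR, where 2.35%, 0.255% and 0% of all genes were. At an unadjusted p under 0.05 there were 1, 0 and 4 members, and DESeq2 called 0 each time. A test that misses its threshold does not show that the drinks act alike.

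**Figure D3:**
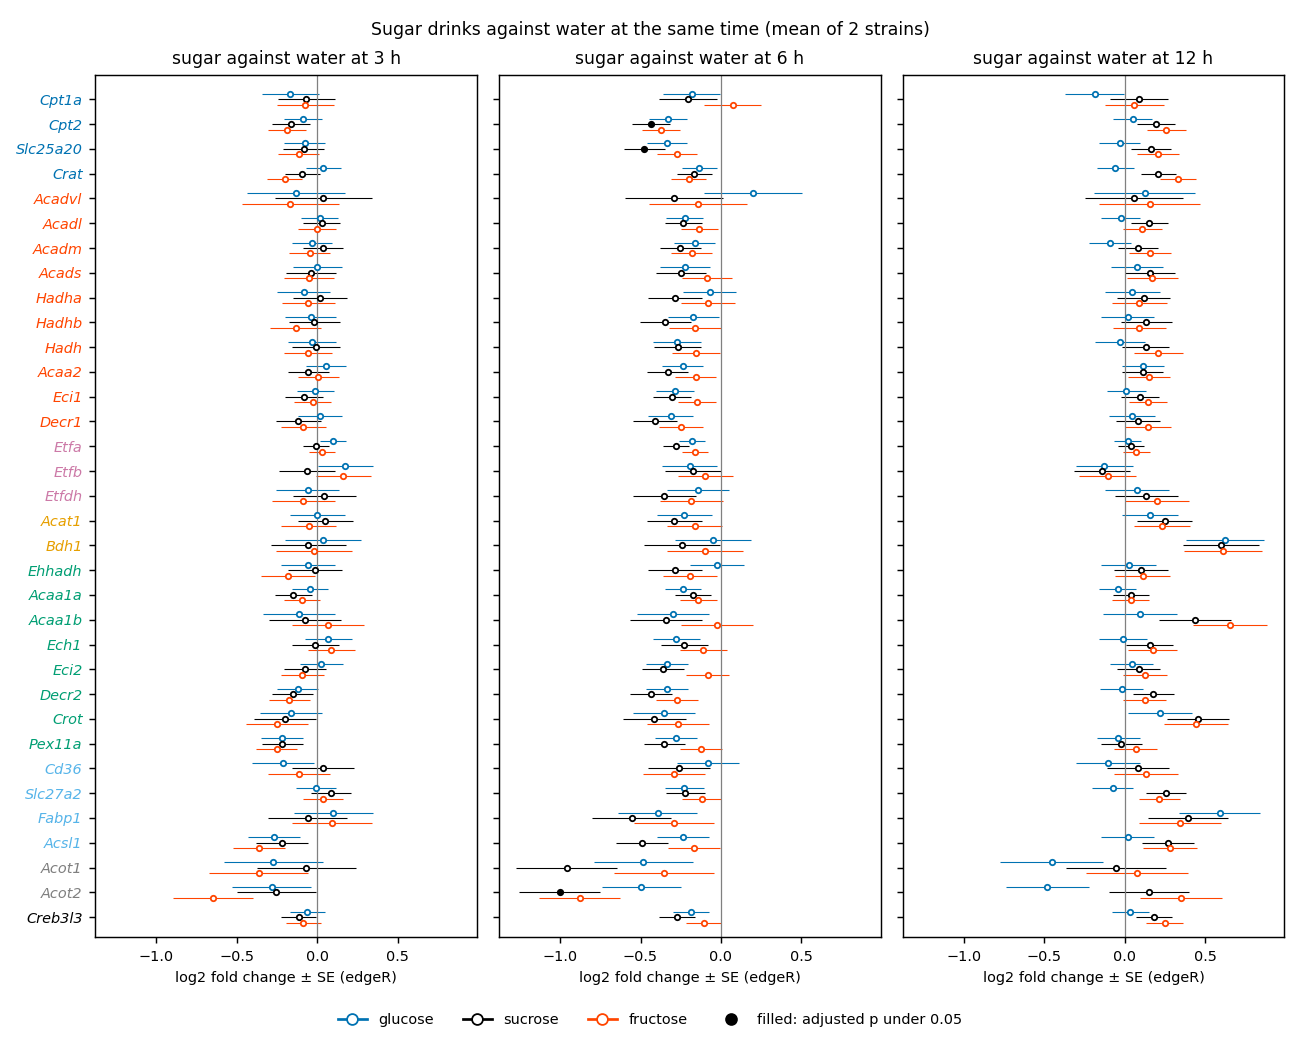
Log2 fold change of each member with glucose, sucrose or fructose against water (x axis, mean of both strains ± SE, edgeR) at 3, 6 and 12 h, in rows by gene, with filled points for adjusted p under 0.05. The 3 filled points are sucrose at 6 h (Acot2, Slc25a20 and Cpt2). Most points at 6 h lie left of 0, and most sucrose and fructose points at 12 h lie right of it.

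Averaged over the 13 conditions, 23 members were higher and 5 lower in BALB/c than in C57BL6/J, where 28.7% of all genes were higher and 26.5% lower. The median over members was 0.24, beside 0.01 over all genes. Of the 10 mitochondrial beta-oxidation genes 9 were higher (Decr1 was not called), with values for the step of 0.09 to 0.56. Among these, the call of Hadh was lost in 5 of 18 alternatives, that of Acadvl in 3 and that of Acaa2 in 2. Of the other higher members, Acaa1a lost its call in 4 and Cpt2 in 1. Acads, the short-chain dehydrogenase, differed by 0.56 ± 0.06 (adjusted p = 4.45e-14) and Hadhb by 0.42 ± 0.06 (adjusted p = 7.45e-09). Both ketone body genes were higher, Bdh1 by 0.69 ± 0.09 (adjusted p = 2.22e-10) and Acat1, the acetoacetyl-CoA thiolase, by 0.45 ± 0.07 (adjusted p = 7.16e-09). Crat was higher by 0.45 ± 0.04 (adjusted p = 5.06e-17).

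Lower in BALB/c were Cd36, the membrane fatty acid translocase (-1.39 ± 0.08, adjusted p = 2.00e-32), Acot1 (-0.51 ± 0.12), Decr2 (-0.49 ± 0.05), Slc27a2 (-0.20 ± 0.05) and Slc25a20 (-0.19 ± 0.05). Besides Decr1, the members not called were Cpt1a, Etfb, Crot, Pex11a and Fabp1. In FPKM, Cd36 had a lowest, median and highest level of 4.69, 8.91 and 16.6 in C57BL6/J and 1.70, 3.69 and 7.57 in BALB/c. The ranges of the strains overlapped at the edges.

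Leaving out the 6 libraries, 25 members were higher and 5 lower in BALB/c, with Decr1 and Crot added, where 29.1% of all genes were higher and 26.7% lower. The summed hepatocyte markers had a median of 86800 CPM in C57BL6/J and 71200 in BALB/c, and skeletal muscle markers 28.7 and 116 CPM. With muscle transcripts as a covariate the counts were again 23 and 5, and for the hepatocyte markers their part in the strain difference was not tested.

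In fasted mice alone 1 member was higher and 2 were lower in BALB/c, where 8.63% of all genes were higher and 7.67% lower. In the fit without the 6 libraries 2 were higher, with Acads added (0.64), and 2 lower, where 6.88% of all genes were higher and 6.01% lower, and the median over members was 0.30. Crat, which buffers acetyl-CoA as acetylcarnitine, had 47.2, 64.1, 51.6, 61.6 and 55.0 CPM in C57BL6/J and 74.4, 78.1, 108, 145 and 113 in BALB/c. The strains did not overlap. Its difference was 0.89 ± 0.16 (adjusted p = 3.22e-06).

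Cd36 (chr5:17781690-17888959, - strand) had 52.6, 39.6, 27.8, 32.4 and 49.8 CPM in fasted C57BL6/J and 9.01, 10.3, 9.28, 6.83 and 18.3 CPM in fasted BALB/c. The strains did not overlap at 0 h. The log2 difference was -1.91 ± 0.28 (adjusted p = 4.00e-08). At 12 h on water Cd36 had 32.5, 48.7, 35.6, 24.8 and 26.9 CPM in C57BL6/J and 7.04, 18.3, 11.2, 17.4 and 12.0 in BALB/c, again without overlap. Decr2 (-0.62 ± 0.18, adjusted p = 0.00931) was the other lower gene at 0 h, a call that was lost in 4 of 18 alternatives, among them without BALB/c replicate 1 alone, and that stood without all 6 libraries.

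Whether the strains responded differently was tested by interaction. For 3, 6 and 12 h against 0 h on water edgeR called 0 members at each time (0, 2 and 1 at an unadjusted p under 0.05, 0 each by DESeq2), where 0.338%, 0.302% and 0.278% of all genes were called. For fructose against water at 3, 6 and 12 h it called 0 members each time (0, 0 and 0 at an unadjusted p under 0.05, 0 each by DESeq2), where 0.00592%, 0.00592% and 0% of all genes were. The median SE of a member was 0.30 in the interaction at 3 h and 0.15 in the averaged contrast.

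**Figure D4:**
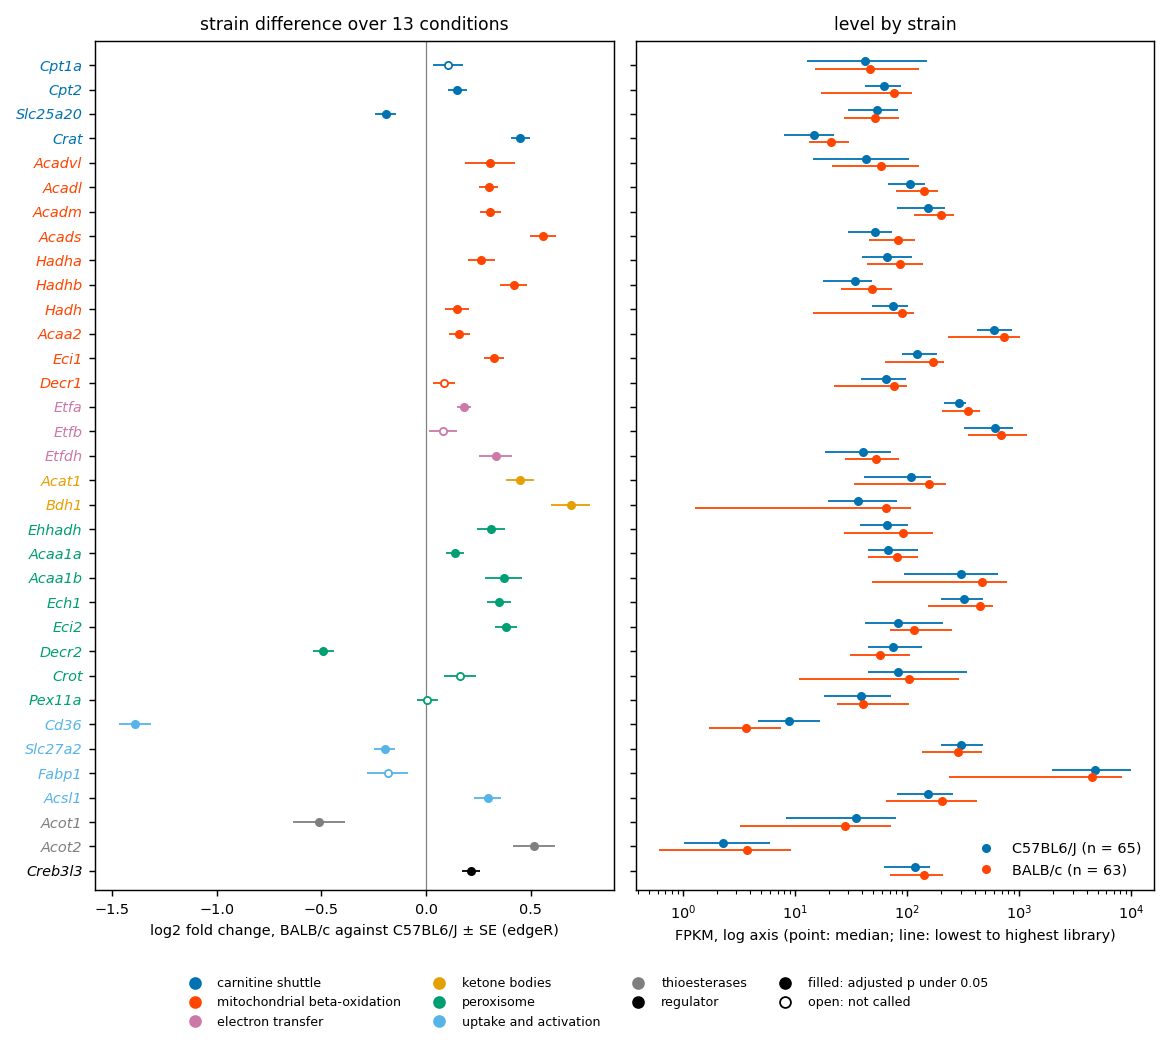
Left, log2 difference of each member between BALB/c and C57BL6/J over 13 conditions (x axis, ± SE, edgeR), filled for adjusted p under 0.05; right, FPKM by strain on a log axis, with points for the median and lines from the lowest to the highest library. Most rows lie slightly right of 0, and Cd36 lies furthest left at -1.39.

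Within groups, the members' log2 CPM varied together between libraries. These correlations describe all libraries as deviations from their group means, with a shared scaling in each library, and carry no test. The highest of the 561 pairs was Hadha with Hadhb (r = 0.953), whose spans in the deposited table lie 85 bases apart on chromosome 5 on opposite strands and encode the subunits of the same protein. Acaa2 with Decr1 followed (r = 0.947). The 45 pairs of mitochondrial beta-oxidation genes had a median r of 0.749, the 28 pairs of peroxisomal genes 0.54, the pair Acat1 and Bdh1 0.808 and all 561 pairs 0.538.

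Hadh, the short-chain hydroxyacyl-CoA dehydrogenase, had the highest median r with the other members (0.695), and Etfb the lowest (-0.05). Etfb with Acadvl gave the lowest pair (r = -0.654), and Etfb with Etfdh, the next carrier of the electrons, gave -0.54. That was the lowest of the 3 pairs of electron transfer genes, whose median was 0.233 and highest 0.508. The pair of Etfb with Etfa, its partner in the flavoprotein, was thus above 0.

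Some members share sequence or exons with other genes. Acot1 and Acot2 lie 15628 bases apart on chromosome 12, and their longest coding transcripts were 79.6% identical where aligned. Acaa1a and Acaa1b lie 182582 bases apart on chromosome 9, with 92.8% identity, so the split of reads within each pair is uncertain. Acot1 took a median of 91.5% of the pair's CPM in C57BL6/J and 84.3% in BALB/c, and Acaa1a 32.4% and 28%. The lower Acot1 and higher Acot2 in BALB/c, the lower Acot2 with sucrose at 6 h, and the 12 h values of Acaa1a and Acaa1b, are read with that limit. The exons of Acadvl overlap those of Dvl2 on the opposite strand over 1151 of 2686 bases, and the Dvl2 counts were 8.76% of those of Acadvl. Crat overlaps Dolpp1 over 59 bases (Dolpp1 counts 21.1% of those of Crat), and the sources used here do not name the strand setting of the counting. Etfb shares 617 of its 1164 exon bases with Gm45233 and 61 with Mir7051, both on the same strand. What this does to the Etfb counts was not tested, and the level and correlations of Etfb are read with that limit.

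A list of 54 other genes of the pathway (fatty acid transport, activation, other dehydrogenases and oxidases, regulators of malonyl-CoA, monocarboxylate carriers and ketone use) had 52 in the table, all tested. On water 6 rose and 4 fell at 3 h, 12 rose and 12 fell at 6 h, and 4 rose and 18 fell at 12 h. Of all genes 12.7% rose and 12.7% fell at 3 h, 13.9% and 14.9% at 6 h, and 8.31% and 9.3% at 12 h. At 3 h Slc16a6, a carrier known to export ketone bodies from hepatocytes, rose by 1.57 ± 0.23, the acetoacetyl-CoA synthetase Aacs by 1.09 ± 0.28 and the peroxisomal CoA hydrolase Nudt7 by 1.04 ± 0.23. Those that fell at 3 h, named after their values were seen because they were few, were Acot12 (-0.78 ± 0.11), Slc22a5 (-0.67 ± 0.15), Acox3 (-0.34 ± 0.07) and Acad8 (-0.26 ± 0.10, lost in 8 of 18 alternatives).

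At 6 h Acacb, the acetyl-CoA carboxylase whose product malonyl-CoA inhibits Cpt1a, rose by 1.03 ± 0.21 and Slc16a6 by 1.02 ± 0.23. The carnitine transporter Slc22a5 fell (-1.31 ± 0.15), as did the acetyl-CoA hydrolase Acot12 (-1.19 ± 0.11). At 12 h the changes were -1.07 ± 0.15 for Slc22a5, -1.88 ± 0.29 for Aacs, -2.40 ± 0.39 for the peroxisomal thioesterase Acot3 and -1.05 ± 0.26 for Slc16a13. Aacs thus lay above its fasted level at 3 h and below it at 12 h. The 4 that rose at 12 h were Acsl5 (0.69 ± 0.18), Acox2 (0.54 ± 0.16), the acyl-CoA binding protein gene Dbi (0.51 ± 0.16) and Slc16a1 (0.44 ± 0.16, lost in 7 of 18 alternatives). The call of Acox2 was lost in 3, among them without the 6 libraries, that of Dbi in 3 and that of Acsl5 in 2.

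With sugars at most 1 of the 52 was called in a contrast. These were Acsl3 with sucrose at 3 h (0.60 ± 0.16), Mlycd, the malonyl-CoA decarboxylase, with fructose at 3 h against water (-0.26 ± 0.08) and against glucose (-0.30 ± 0.08), Acacb with sucrose at 6 h (0.76 ± 0.21) and Nudt7 with glucose at 12 h (1.43 ± 0.24). Each of these calls was lost in 3 to 7 of 18 alternatives. Of all genes, 2.92% were called with sucrose and 6.71% with fructose at 3 h, and 2.35% for fructose against glucose at 3 h. With sucrose at 6 h 0.58% of all genes were higher and 0.563% lower, and with glucose at 12 h 0.0651% were called.

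Between strains over all conditions 18 of the 52 were higher and 20 lower in BALB/c, where 28.7% of all genes were higher and 26.5% lower. The dehydrogenases Acad10 (1.05 ± 0.04) and Acad12 (1.14 ± 0.09) and the peroxisomal transporter Abcd2 (1.48 ± 0.12) were higher, and Acot3 was lower (-1.21 ± 0.15). In fasted mice 5 were higher, Acad12 (1.36 ± 0.31), Acsl4 (1.06 ± 0.27), Acad10 (0.93 ± 0.16), Mlycd (0.42 ± 0.12) and Slc27a4 (0.39 ± 0.14, lost in 10 of 18 alternatives), and 6 lower, among them Acsl3 (-1.66 ± 0.24), Nudt7 (-1.63 ± 0.33) and Aacs (-1.60 ± 0.40), where 8.63% of all genes were higher and 7.67% lower. The calls of Aacs and Mlycd were lost without the 6 libraries (in 3 and 4 of 18 alternatives in all), and that of Acsl4 in 3, among them without BALB/c water 0 h replicate 1 alone. Acsl3 was the 1 listed gene whose change at 3 h differed between strains (1.57 ± 0.33, adjusted p = 0.00847), and the call was lost without BALB/c water 0 h replicate 1.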

How the data were processed

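Total RNA of frozen liver was sequenced as paired reads on a NovaSeq, per the labels' protocols. The submitters' processing notes name CASAVA, STAR 2.5, HTSeq 0.6.1 and DESeq2 and the build mm10 (GRCm38). The deposited table holds raw counts per gene and FPKM, which the authors computed as counts divided by gene length and library total (rebuilt to within a relative difference of 5e-12). Counts entered edgeR 4.0.16 (R 4.3.3, limma 3.58.1): genes were kept by filterByExpr over the 26 groups, scaled by TMM and fitted by robust quasi-likelihood with 1 mean per group. Contrasts average both strains, with Benjamini-Hochberg adjustment over 16886 genes at 0.05. CPM are TMM-scaled. The method was tested on counts simulated for the water libraries at 0 and 12 h and fitted alone, not with all 26 groups. There 80% of genes changed by 1 and 20% of genes changed by 0.5 on the log2 scale were called over 14661 genes. The rates of the model with all groups were not measured. DESeq2 1.42.0 was an alternative, beside other scaling, filters, covariates and left-out libraries. Sequences were read with Python 3.11.15, transcripts aligned with Biopython 1.88 and figures drawn with matplotlib 3.10.9. The members and lists were chosen with earlier results of these data known. All 34 members are named, and per-library values are given for 1 or 2 genes per role and for the highest and lowest called member of each contrast. Of the other pathway genes, those called with an absolute log2 fold change of at least 1 are named, at most 4 per contrast. Further other pathway genes outside that rule were named after their values were seen, where few were called in a direction. No pair of libraries held identical values, and the closest replicates differed beyond counting noise (lowest chi-square per degree of freedom 19.17).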

Additional observations from a re-analysis of the deposited data

Results flagged for a closer look

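The per-library values of 15 genes were screened in the 8 water groups, and those of Cpt2 and Acot2 also with sucrose at 6 h. A library was flagged when its gap to its nearest neighbour, divided by the range of the group on the log2 scale, exceeded Dixon's 95% critical value. Of the 124 sets of values 18 had such a library, and chance gives about 1 in 20 for a single set. The genes vary together within libraries, so the sets are not independent and the count is no test.

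BALB/c water 0 h replicate 1 stood below its group for Bdh1 (3.92 CPM, others 204 to 358), Cpt2 (39.7 CPM, others 142 to 209), Crot (32.1 CPM, others 213 to 355), Acaa1b (81.8 CPM, others 901 to 1407) and Eci2 (151 CPM, others 345 to 410). BALB/c water 12 h replicate 1 did so for Acadm (192 CPM, others 411 to 474), Creb3l3 (132 CPM, others 265 to 340), Crot (91 CPM, others 523 to 647) and Acaa1b (132 CPM, others 475 to 760). C57BL6/J water 3 h replicate 4 was low for Cpt1a (92.4 CPM, others 200 to 224), Acadm (167 CPM, others 311 to 393), Etfdh (70.1 CPM, others 149 to 190), Bdh1 (54.9 CPM, others 122 to 132) and Ehhadh (143 CPM, others 214 to 239). These are the 3 libraries named at the start as lowest in correlation to their groups.

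The remaining sets each had their own library. Acadm was low in C57BL6/J water 6 h replicate 1 (284 CPM, others 344 to 357) and Acot1 in C57BL6/J water 12 h replicate 1 (38 CPM, others 55.4 to 62.9). Acot1 was high in C57BL6/J water 0 h replicate 2 (112 CPM, others 47.4 to 57.6) and Eci2 in C57BL6/J water 12 h replicate 4 (168 CPM, others 105 to 112).

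Crot at 3 h was below the fasted mean in every C57BL6/J library and above it in every BALB/c library. The fasted BALB/c mean includes replicate 1 (32.1 CPM, others 213 to 355), so the direction in BALB/c rests on a mean that this library lowers. The difference between strains was 0.67 on the log2 scale (0.669 before rounding), and edgeR's interaction test did not call it (adjusted p = 0.56). It called 0 members at 3 h without the 6 libraries too.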

How the results depend on the processing

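Of the calls of members, those that stood in all 18 alternatives were 2 of 4 on water at 3 h, 5 of 8 at 6 h, 10 of 16 at 12 h, 0 of 3 with sucrose at 6 h, 23 of 28 between strains and 2 of 3 between fasted strains, and none changed sign. The number called on water was 7 at 3 h without the 6 libraries far from their groups, 5 to 11 at 6 h on leaving out 1 replicate number or 1 library at a time, and 10 at 12 h with only the libraries of the contrast. With sucrose at 6 h it was 5 by DESeq2, 1 with no filter on low counts, 5 with the name suffix as a covariate, 0 in the 94 libraries without that suffix, 6 with only the libraries of the contrast, 0 to 3 without 1 replicate number, 6, 5 and 5 without BALB/c water 0 h replicate 1, BALB/c water 12 h replicate 1 or C57BL6/J water 3 h replicate 4, and 9 without the 6. With fructose at 6 h it was 1 by DESeq2, with RLE size factors, with the suffix or with muscle transcripts as a covariate, 2 with only the libraries of the contrast, 2, 1 and 1 without the same single libraries, and 3 without the 6. Fructose at 3 h gave 1 without replicate 3 (0 to 1 over the replicate numbers) and 1 without the 6, and glucose at 6 h gave 1 without the 6. Apart from construction (fewer libraries or more genes), the cause was not tested. The share of all genes called is given above only for the main fit and the fit without the 6 libraries. For the other settings these counts cannot tell a shift of the members from a shift of all genes. The labels do not say what a replicate number stands for, and 914 of 1576 same-number pairs, not all, correlated above 0.1 (median r 0.161, against -0.0424 for other numbers). The 74 libraries that correlated best with their own number are a hint from the data, not the design. A replicate block gave 5 members with sucrose at 6 h and 2 with fructose at 6 h, and kept the other counts within 1.5 times. The precision of the log2 fold changes on water (median SE of a member 0.152) limits what could be called.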
